A study of Homo sapiens with 12 samples.

Results

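The mRNAs of 10 antioxidant enzymes were followed in HCC1806 cells, a basal-like triple-negative breast cancer (TNBC) line. The genes are SOD1, SOD2, CAT, GPX1, GPX2, GPX4, PRDX1, PRDX3, PRDX6 and TXN, and each was read from the 1 row whose Ensembl identifier maps to its symbol, which makes them 10 of the 17013 genes measured. For SOD2 this is ENSG00000112096; the newer identifier of the gene has no row. Transfection was with a non-targeting control siRNA (siNT) or with a pool of 4 siRNAs against MLK4, a MAP3K-family kinase encoded by MAP3K21 (siMLK4), and the cells then received 1 μM doxorubicin for 24 h or no drug. Each of the 4 groups holds 3 libraries of this same line, which the study's methods describe as triplicate transfections, so p-values measure the spread between transfections of a single line. The drug-free cells are called vehicle-treated here. The study's sequencing methods describe them as left untreated, whereas its results name vehicle and a supplementary legend DMSO, in an experiment of 24 h. The sample labels name DMSO but also mark them as time 0. Libraries held 16759025 to 19302248 reads. A difference of siRNA group is the difference between one pool and one control siRNA, and no second reagent was sequenced.

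The 10 enzymes form 2 steps of one defense. Superoxide dismutases turn superoxide into hydrogen peroxide, SOD1 in the cytosol and SOD2, the manganese enzyme, in the mitochondrial matrix. Hydrogen peroxide is then removed by catalase (CAT) in peroxisomes, by the glutathione peroxidases and by the peroxiredoxins, of which PRDX3 is mitochondrial. Glutathione serves the glutathione peroxidases, and thioredoxin (TXN) reduces most peroxiredoxins. Doxorubicin is an anthracycline that poisons topoisomerase II and also passes electrons to oxygen, which makes superoxide. SOD2 is a textbook target of NF-κB, and GPX2 of the NRF2 transcription factor.

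The sense strands of the 4 siRNAs are given because a guide strand can also lower mRNAs that pair only with its seed. The capitals mark the 7-base word that pairs with the seed of the guide.
siRNA 1: ggaaagaugcuCAGAGAGauu
siRNA 2: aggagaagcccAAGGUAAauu
siRNA 3: agaagaaacgaGAGGGAAuuu
siRNA 4: agaacagauugCAAAGAAauu
All 4 matched MAP3K21 over 19 bases, and none matched a transcript of the 10 enzymes over that length. SOD2 alone among the 10 has such words in the 3′ untranslated region (3′UTR) of its canonical transcript. That region is 13424 bases long and holds 6 words, 2 of siRNA 1, 1 of siRNA 2 and 3 of siRNA 4. The 3′UTRs of the other 9 enzymes span 207 to 952 bases and hold 0. The first word of each of the 3 siRNAs after the stop codon is shown in capitals with its neighbors, all on the − strand of chromosome 6 of GRCh38. It begins 235 bases after the stop codon for siRNA 1, 2730 for siRNA 2 and 1039 for siRNA 4.
chr6:159682244-159682266: attttcttCAGAGAGctaaatta
chr6:159679749-159679771: aaatagaaAAGGTAAaattgctt
chr6:159681440-159681462: actgagagCAAAGAAtggaggtc
At least 1 of the 4 words occurs in the canonical 3′UTR of 44.3% of 13584 protein-coding genes, and in 95.9% of the 517 genes whose 3′UTR is at least 50% as long as that of SOD2. Of the 15 annotated SOD2 transcripts, which span 454 to 14167 bases, 5 hold any word. A word is a match of letters, and its part in the results below was not tested.

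MLK4 itself followed the siRNA labels. MAP3K21 had 553, 670 and 674 normalized reads (reads divided by the authors' size factor of the library) in the siNT vehicle libraries. It had 758, 856 and 772 in siNT with doxorubicin. In siMLK4 cells the values were 103, 94.7 and 88.7 in vehicle and 113, 138 and 94.4 with doxorubicin. The pool thus left 15.1% of the control level in vehicle and 14.5% with doxorubicin. The cells carried their line's markers: KRT5, a basal keratin, averaged 17247 normalized reads and EPCAM, an epithelial adhesion molecule, 11146. Of 8 epithelial and basal markers, 5 fell with doxorubicin in siNT and 6 in siMLK4 cells, and their summed level went from 70769, 74774 and 76203 normalized reads to 39180, 41112 and 43786 in siNT libraries, and from 70936, 67427 and 65902 to 28923, 27894 and 31509 in siMLK4 libraries. KRT5 had group means of 20878 and 8817 without and with the drug in siNT and of 32257 and 7035 in siMLK4 cells. By siRNA, KRT5 was higher and EPCAM, KRT6A, KRT14 and KRT17 were lower in siMLK4 vehicle cells, and these 4 were also lower with the drug (EPCAM in vehicle under 7 of 8 alternatives, with adjusted p up to 0.054). Their part in the enzyme results was not tested. The progesterone receptor PGR was at 0 in all 6 vehicle libraries and had 7.26 to 18.5 normalized reads in the 6 doxorubicin libraries, and the estrogen receptor ESR1 averaged 76.3 normalized reads. ERBB2 averaged 1698. Among 7 markers of immune, endothelial and stromal cells, CD3E, PECAM1, COL1A2 and DCN have no row, PTPRC averaged 11.3, CD14 25 and COL1A1 372 normalized reads. COL1A1 was also higher in siMLK4 cells, with a vehicle mean of 529 against 286 in siNT, and PTPRC averaged 20.3 with and 5.48 without the drug in siNT cells and 17.9 and 1.75 in siMLK4 cells. CD14 averaged 25 with and 11.4 without the drug in siNT cells and 36.9 and 26.8 in siMLK4 cells. It passed with the drug in siNT cells and by siRNA in vehicle. The 3 together had at most 614 normalized reads in a library, and their part in the results was not tested.

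Libraries differed within groups in a way that touches the shortest of these mRNAs. For each library, the deviations of its genes from their means over all 12 libraries were fitted on transcript length, so the slope can also hold differences between groups. This slope, in log2 units per doubling of length, was −0.114 in siNT vehicle 1 and −0.15 in siMLK4 vehicle 3. It was 0.107 in siNT vehicle 3 and 0.115 in siMLK4 vehicle 1, and lay between −0.071 and 0.068 in the other 8 libraries. SOD1, GPX1, GPX4 and TXN have canonical transcripts of 737 to 899 bases. All 4 were highest of their vehicle group in siNT 1 and siMLK4 3 and lowest in siNT 3 and siMLK4 1. TXN deviated from its group mean by 0.43, −0.34, −0.42 and 0.43 log2 units in siNT vehicle 1 and 3 and siMLK4 vehicle 1 and 3, in this order. The within-group SD of these 4 genes was 0.25 to 0.31 log2 units, higher than that of 82.9 to 92.9% of protein-coding genes. SOD2, with a canonical transcript of 14167 bases, had a within-group SD of 0.13, higher than that of 30.4%. The plot of within-group deviations shows both patterns. Results are therefore also given with the slope as a covariate and without the 2 vehicle libraries of lowest slope, both chosen after seeing the data.

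**Figure D1:**
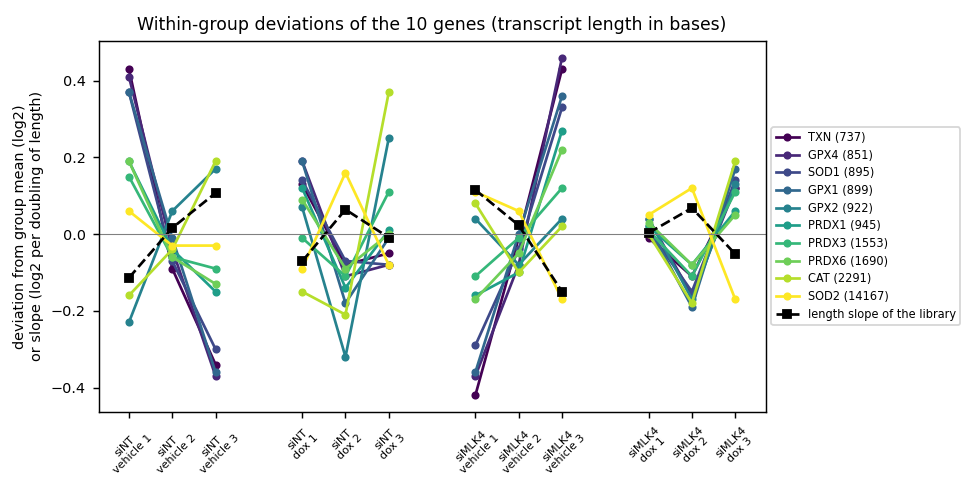
Deviation of each of the 10 genes from its group mean (log2, vertical axis) in each of the 12 libraries (horizontal axis), colored by canonical transcript length, with the length slope of each library as black squares. TXN, GPX4, SOD1 and GPX1 lie highest in siNT vehicle 1 and siMLK4 vehicle 3, the libraries with slopes of −0.114 and −0.15.

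The levels of the enzymes spanned a wide range. Per kilobase of merged exons in siNT vehicle cells, TXN had 13056 ± 3681 normalized reads and PRDX1 11315 ± 1417 (SD, n = 3 each). Both ranges overlapped. CAT had 3536 ± 443, SOD1 2912 ± 718 and PRDX6 2767 ± 337 (SD, n = 3 each), where SOD1 overlapped both of its neighbors. Below them came PRDX3 (1910 ± 178), GPX4 (1794 ± 499) and GPX2 (1667 ± 241), again with overlap, and GPX1 (1000 ± 262; SD, n = 3 each), whose highest library lay below the lowest of GPX2. SOD2 was last at 126 ± 4.71 (SD, n = 3) normalized reads per kilobase, but its merged exons of 18144 bases are dominated by the long 3′UTR. Per kilobase of the canonical transcript it was last too, at 161. That transcript has 14167 bases, of which 13424 are 3′UTR, so the same limit holds. The annotated SOD2 transcripts start at 454 bases, and which of them were expressed was not tested, so its rank is uncertain. Together the 10 genes took 0.327 to 0.466% of the reads of a library.

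**Figure D2:**
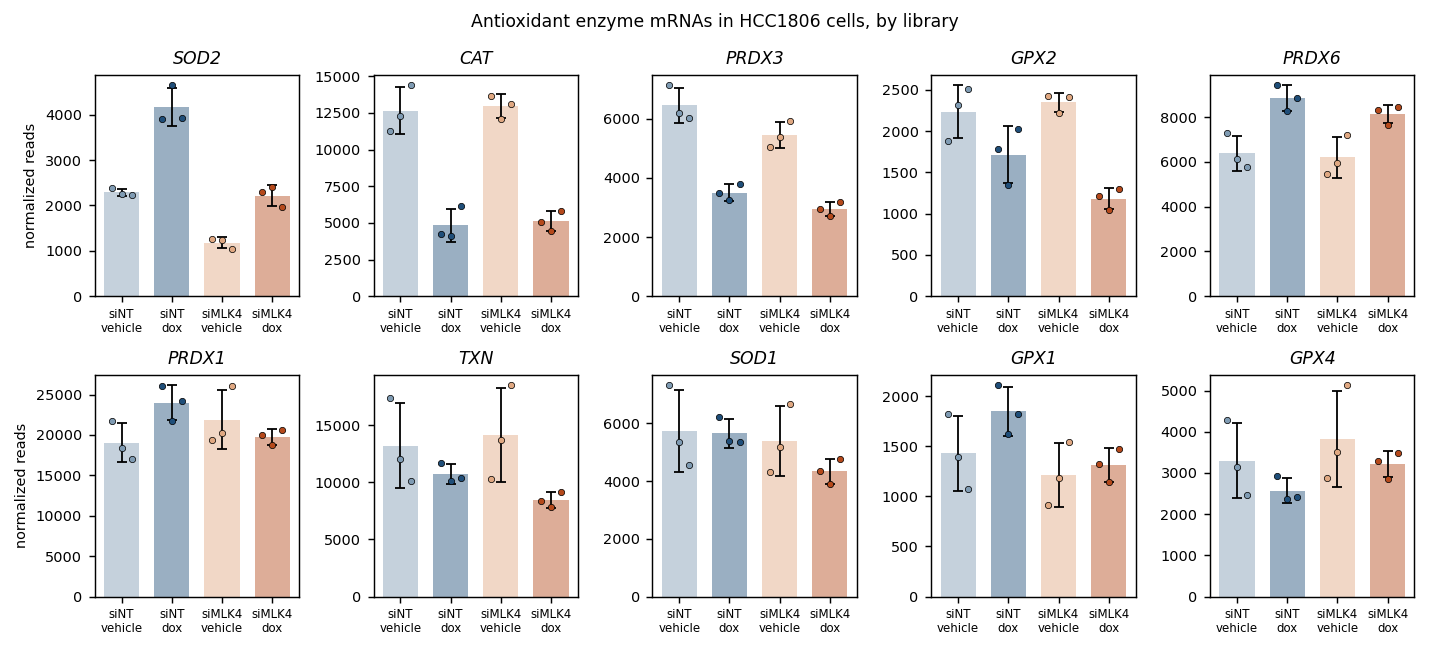
Normalized reads (vertical axis, linear from 0) of the 10 genes in the 4 groups; points are the 3 libraries, bars the mean and error bars the SD. SOD2 shows 3 levels, with siNT vehicle (2287) and siMLK4 with doxorubicin (2215) nearly equal, while CAT and PRDX3 split by drug.

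SOD2 rose with doxorubicin in both siRNA groups and was lower in siMLK4 cells in both treatments. In the siNT vehicle libraries it had 2386, 2244 and 2233 normalized reads, and with doxorubicin 3905, 4653 and 3937. In the siMLK4 vehicle libraries it had 1267, 1230 and 1036, and with doxorubicin 2288, 2397 and 1959. No library of one siRNA group overlapped the other within a treatment, and no treated library overlapped its vehicle group. The siMLK4 libraries with doxorubicin overlapped the siNT libraries without it. In bulk RNA, fewer expressing cells and less RNA per cell cannot be told apart. The doxorubicin mean was 1.82-fold the vehicle mean in siNT cells (log2 fold change 0.85, SE 0.11, adjusted p = 2.9e-05 by limma with Benjamini-Hochberg adjustment, as all below). In siMLK4 cells it was 1.88-fold (0.88, SE 0.11, adjusted p = 2e-05). With the siMLK4 pool SOD2 averaged 51.5% of its control level in vehicle (−0.93, SE 0.11, adjusted p = 5.8e-05) and 53.2% with doxorubicin (−0.9, SE 0.11, adjusted p = 0.0001). The difference between the 2 doxorubicin responses, tested as the interaction, was 0.04 (SE 0.16, adjusted p = 0.96). SOD2 passed in all 12 fits that left out 1 library, in each of the 4 comparisons. Its direction was the same with the slope as a covariate, where the log2 fold changes were 0.85, 0.87, −0.93 and −0.91. Other genes share 9.7% of its 50-base stretches, chiefly SOD2-OT1, which overlaps it on the same strand and has no row.

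Against this, the share of all genes that passed sets the background. An adjusted p under 0.05 was reached with doxorubicin in siNT cells by 29.6% of the 17013 genes upward and 27.7% downward. The study's thresholds (adjusted p under 0.01 and absolute log2 fold change over 0.75) were reached by 22.7%. They were applied here to limma differences of the deposited variance-stabilized values, whereas the study used corrected fold changes of DESeq2. Among the 10 enzymes 3 rose, 3 fell and 4 did not pass, and 3 were past the study's thresholds. In siMLK4 cells the drug moved 30.2% of all genes up and 27.7% down, with 23.2% past the study's thresholds, and 2 enzymes rose, 4 fell and 4 did not pass, and 4 enzymes were past the study's thresholds. Shares of this size are near the background for a list of 10. The median log2 fold change of the 10 was −0.13 and −0.25 in siNT and siMLK4 cells, against 0 and 0.02 for all genes. Scaled by library totals, which moved the median of all genes by 0.241 and 0.186, the medians of the 10 were 0.11 and −0.07, and 4 rose and 2 fell in siNT cells.

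Far fewer genes differed by siRNA. In vehicle 12.7% of all genes were higher and 13.0% lower in siMLK4 cells, 5.65% being past the study's thresholds, and of the 10 enzymes only SOD2 passed. With doxorubicin 12.7% were higher and 12.1% lower, and 5.58% were past the study's thresholds. Of the enzymes, SOD2 and GPX2 were lower there and 8 did not pass, and SOD2 was the one past the study's thresholds. The interaction was passed by 1.2% of all genes (0.276% at the study's thresholds) and by 0 of the 10 enzymes in limma and in limma-voom. GPX2 and PRDX1 were the 2 with an unadjusted p under 0.05.

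**Figure D3:**
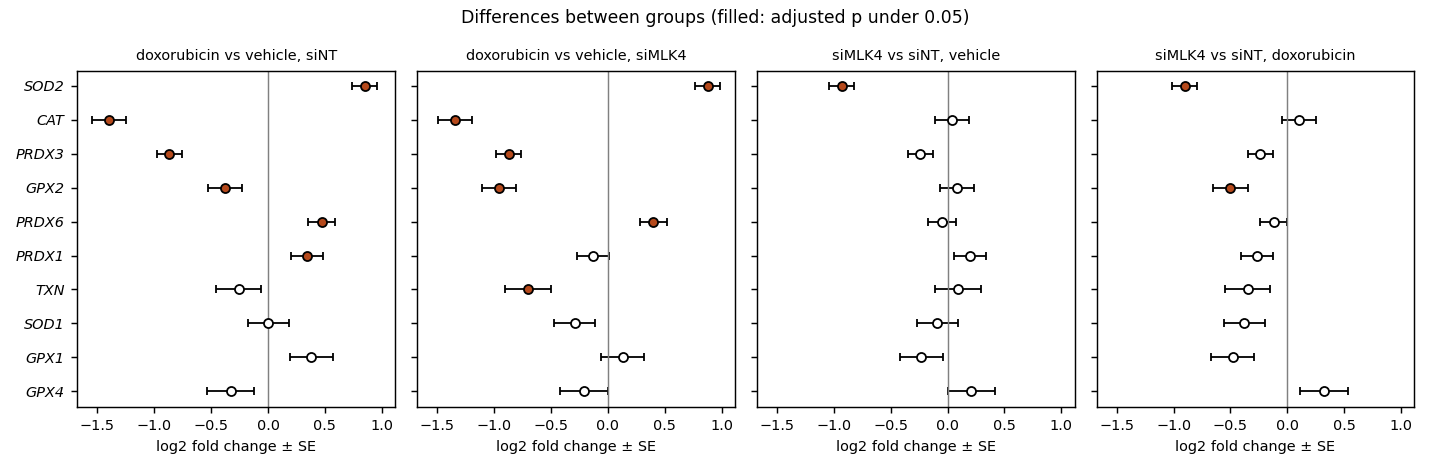
Log2 fold change with SE (horizontal axis) of the 10 genes in 4 comparisons; filled points passed an adjusted p under 0.05. In both comparisons of siRNA groups SOD2 is farthest from 0, at −0.93 and −0.9, whereas CAT is farthest in both doxorubicin comparisons, at −1.4 and −1.34.

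Catalase went the other way with the drug. CAT had 11289, 12282 and 14392 normalized reads in siNT vehicle libraries and 4264, 4083 and 6126 with doxorubicin. In siMLK4 cells it had 13668, 12065 and 13106 in vehicle and 5073, 4478 and 5802 with the drug. Every treated library lay below every vehicle library of either siRNA group, while the siRNA groups overlapped. The treated mean was 38.1% of the vehicle mean in siNT cells (−1.4, SE 0.15, adjusted p = 5e-06) and 39.5% in siMLK4 cells (−1.34, SE 0.15, adjusted p = 7.4e-06). The siRNA differences of CAT were 0.04 (SE 0.15) in vehicle and 0.1 (SE 0.15) with doxorubicin, with adjusted p = 0.89 and 0.68. No 50-base stretch of CAT occurs in another gene.

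SOD2 thus rose with doxorubicin, whereas PRDX3, which is also mitochondrial, fell. PRDX3 had 7142, 6191 and 6025 normalized reads in siNT vehicle libraries and 3478, 3250 and 3796 with the drug. The siMLK4 libraries had 5060, 5399 and 5920 in vehicle and 2963, 2722 and 3188 with the drug. Treated and vehicle libraries did not overlap. The log2 fold change was −0.87 (SE 0.11) in either siRNA group, with adjusted p = 1.7e-05 for siNT and 1.6e-05 for siMLK4. All siMLK4 libraries lay below all siNT libraries of the same treatment. The siMLK4 difference of PRDX3 was −0.24 in each treatment (SE 0.11, adjusted p = 0.13 in each) and did not pass. In the fit with the length slope it was −0.24 and −0.23 (SE 0.07, adjusted p = 0.0087 and 0.013).

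GPX2, the glutathione peroxidase of epithelia, is the other enzyme with a siRNA difference. It had 1876, 2319 and 2505 normalized reads in siNT vehicle libraries and 1780, 1345 and 2020 with doxorubicin. The siMLK4 libraries had 2420, 2217 and 2413 in vehicle and 1210, 1044 and 1295 with the drug. The siNT groups overlapped, whereas the siMLK4 libraries with drug lay below all others. GPX2 fell to 50.3% of vehicle in siMLK4 cells (−0.96, SE 0.15, adjusted p = 7.7e-05) and to 76.8% in siNT cells (−0.38, SE 0.15, adjusted p = 0.0386). With doxorubicin it was lower in siMLK4 than in siNT cells, at 69% (−0.5, SE 0.15, adjusted p = 0.0222). The interaction was −0.58 (SE 0.21, adjusted p = 0.2), so the 2 responses were not shown to differ. The siNT response passed in 7 of 12 fits without 1 library and was lost without siNT vehicle 2 or 3, siNT doxorubicin 1 or 2, or siMLK4 doxorubicin 1, where adjusted p reached 0.21, with library totals (−0.15, adjusted p = 0.41) and with only the groups compared in the fit (adjusted p = 0.063). The difference with doxorubicin passed in 8 of 12 and was lost without siNT doxorubicin 1 or 3 or siMLK4 doxorubicin 1 or 2, with adjusted p up to 0.11.

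The GPX2 promoter is shown because it holds the core of the antioxidant response element, the site read by NRF2. The core (letters TGACNNNGC, sought on both strands from 250 bases before to 50 after the start) lies 122 to 114 bases before the start, in capitals, on the + strand of chromosome 14 of GRCh38, with the gene on the − strand.
chr14:64942851-64942875: ccccaggaTGACTTAGCaaaaacag
It is the only match among 12 RefSeq promoter windows of the 7 enzymes that the reference table covers. The core occurs in 13.3% of all 35116 windows and in 14.7% of the 17309 windows of genes measured here. The NF-κB consensus occurs in 11.3% and 13.5% of them and in none of the 12 windows, 4 of which belong to SOD2. These are matches of letters in short windows only.

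PRDX6, a peroxiredoxin that uses glutathione, rose with doxorubicin in both siRNA groups. It had 7273, 6116 and 5792 normalized reads in siNT vehicle libraries and 9432, 8284 and 8860 with the drug, without overlap. In siMLK4 cells it had 5457, 5946 and 7197 in vehicle and 8325, 7668 and 8437 with the drug, again without overlap. Its log2 change was 0.47 (SE 0.12, adjusted p = 0.0049) in siNT and 0.4 (SE 0.12, adjusted p = 0.0132) in siMLK4 cells. The latter was lost when siMLK4 vehicle 1 was left out (adjusted p = 0.062).

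PRDX1, the abundant cytosolic peroxiredoxin, had 21680, 18355 and 17060 normalized reads in siNT vehicle libraries and 26037, 21750 and 24152 with doxorubicin. All treated libraries exceeded all vehicle libraries there, though the lowest treated and the highest vehicle library nearly touched. The rise was 0.34 (SE 0.14, adjusted p = 0.0498). It passed in only 4 of 12 fits without 1 library and in 3 of 8 alternatives, and not with the replicate block (adjusted p = 0.056). It was lost without siNT vehicle 2 or 3, siNT doxorubicin 1 or 3, siMLK4 vehicle 2, or any of the siMLK4 doxorubicin libraries, with adjusted p up to 0.16. In siMLK4 cells PRDX1 had 19354, 20227 and 26101 in vehicle and 20017, 18697 and 20637 with the drug, with overlap (−0.13, SE 0.14, adjusted p = 0.42). With doxorubicin all siMLK4 libraries of PRDX1 lay below all siNT libraries, but the difference did not pass (−0.27, SE 0.14, adjusted p = 0.16). It passed without the 2 vehicle libraries of lowest slope (adjusted p = 0.038). The interaction of PRDX1 was −0.47 (SE 0.19, adjusted p = 0.27).

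TXN, the thioredoxin that serves the peroxiredoxins, had 17334, 12075 and 10152 normalized reads in siNT vehicle libraries and 11706, 10148 and 10347 with doxorubicin. In siMLK4 cells it had 10255, 13667 and 18479 in vehicle and 8370, 7797 and 9151 with the drug. The siNT groups overlapped and the siMLK4 groups did not. It fell in siMLK4 cells (−0.7, SE 0.2, adjusted p = 0.009), and in siNT cells the difference was −0.26 (SE 0.2, adjusted p = 0.29). The interaction did not pass (−0.44, SE 0.29, adjusted p = 0.54). Without the 2 vehicle libraries of lowest slope the siMLK4 response was −0.49 (SE 0.13, adjusted p = 0.0058). With doxorubicin all siMLK4 libraries of TXN lay below all siNT libraries, but the difference did not pass (−0.35, SE 0.2, adjusted p = 0.24). It passed in 1 of 8 alternatives (adjusted p = 0.023) and without the 2 vehicle libraries of lowest slope (adjusted p = 0.039).

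SOD1, GPX1 and GPX4 passed in none of the comparisons as fitted here. SOD1 had 7321, 5363 and 4567 normalized reads in siNT vehicle libraries and 6236, 5389 and 5346 with doxorubicin, against 4319, 5176 and 6687 and then 4357, 3892 and 4758 in siMLK4 cells. The siMLK4 libraries with the drug lay below all siNT libraries with the drug, and the other groups overlapped. Its largest difference was siMLK4 against siNT with doxorubicin, at −0.38 (SE 0.18, adjusted p = 0.13). That difference passed in 1 of 8 alternatives (adjusted p = 0.018) and without the 2 vehicle libraries of lowest slope (−0.38, adjusted p = 0.017). With the slope as a covariate it passed too (−0.35, adjusted p = 0.00083). GPX1, the cytosolic glutathione peroxidase, had 1826, 1391 and 1079 in siNT vehicle libraries and 2109, 1619 and 1820 with the drug. Its doxorubicin difference there was 0.38 (SE 0.19, adjusted p = 0.11), from 0.2 to 0.57 in fits without 1 library, and it passed without siNT vehicle 1 (adjusted p = 0.022), with library totals (0.61, adjusted p = 0.012), with the slope as a covariate (0.36, adjusted p = 0.0002) and without the 2 vehicle libraries of lowest slope (0.57, adjusted p = 0.0058). Its siMLK4 values were 913, 1186 and 1543 in vehicle and 1327, 1143 and 1473 with the drug, which lay below all siNT libraries with the drug (−0.48, SE 0.19, adjusted p = 0.0901). Other genes share 33.8% of its 50-base stretches, chiefly ENSG00000290318, which overlaps it on the same strand, so its counts are uncertain. GPX4, which reduces lipid peroxides in membranes, had 4288, 3138 and 2475 in siNT vehicle libraries and 2927, 2372 and 2412 with the drug. Its siMLK4 values were 2868, 3508 and 5126 in vehicle and 3295, 2859 and 3496 with the drug, where the siMLK4 difference was 0.32 (SE 0.21, adjusted p = 0.28).

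The length slope was also entered as a covariate. It is computed from the same values, as deviations from the means over the 12 libraries. The spread of genes that follow it, such as these short mRNAs, is therefore smaller in that fit by construction. The p-values of that fit are given as a description only. In that fit 9 of the 10 enzymes passed with doxorubicin in siNT cells and 9 in siMLK4 cells, where 68.5% and 68.4% of all genes passed. By siRNA 5 differed in vehicle and 8 with doxorubicin, where 40.5% and 40.3% of all genes passed. With doxorubicin, GPX1 was then lower (−0.44, adjusted p = 9.2e-05) and GPX4 higher (0.36, adjusted p = 0.00074) in siMLK4 cells. Without the 2 vehicle libraries of lowest slope, which were chosen by the same deviations, 6 enzymes and 32.2% of all genes differed by siRNA with doxorubicin, GPX1 at adjusted p = 0.017 and GPX4 at 0.062.

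How the enzymes moved together was read as a description across the 12 libraries, which share groups and length bias. SOD1, GPX1, GPX4 and TXN correlated with each other at r = 0.97 to 0.99 within groups. The longer PRDX6 was as close to them (0.96 to 0.98) and PRDX1 nearly so (0.93 to 0.96), whereas GPX2, of 922 bases, lay at −0.07 to −0.23 with them and at 0.85 with CAT. SOD2 correlated negatively with each of the other 9 within groups, at −0.43 to −0.71, but over all 12 values its r was 0.66 with PRDX6, 0.59 with GPX1, 0.18 with PRDX1 and 0.07 with SOD1, and −0.38 to −0.71 with the other 5. The genes whose 12 values were most like SOD2, among 10548 protein-coding genes with a mean of at least 100 normalized reads, were RASSF8 (Pearson's r 0.986), SOX9 (0.984), STAU1 (0.984), NUP54 (0.984) and GREM1 (0.982). SOX9, a transcription factor, had group means of 371, 953, 120 and 374 normalized reads in siNT vehicle, siNT with doxorubicin, siMLK4 vehicle and siMLK4 with doxorubicin. STAU1 shared the pattern at a small size, with 3907, 4275, 3504 and 3858. The most opposite were LRRCC1 (−0.992), TMEM106C (−0.986) and TMEM19 (−0.985).

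Genes that serve these enzymes were counted from fixed lists. Of 21 other superoxide and peroxide enzymes and redox partners measured, 3 rose and 8 fell with doxorubicin in siNT cells, and 4 rose and 8 fell in siMLK4 cells. Of all genes 29.6% rose and 27.7% fell in siNT cells and 30.2% and 27.7% in siMLK4 cells, and the medians of the 21 were −0.11 and −0.12 against 0 and 0.02 for all genes. With library totals 6 rose and 4 fell in siNT cells and 6 rose and 6 fell in siMLK4 cells, so the balance of this list depended on the scaling. TXNRD1, the reductase of thioredoxin, had 25550 ± 4284 normalized reads without and 14003 ± 1921 with the drug in siNT cells. In siMLK4 cells it had 22902 ± 2708 without and 11577 ± 927 with it (SD, n = 3 each). The log2 fold changes were −0.86 and −0.98, with adjusted p = 0.00021 and 7.1e-05. GSR, the reductase of glutathione, fell by 0.96 and 1.19 on the log2 scale. TXNIP, which binds and blocks thioredoxin, rose by 0.76 and 1.2. CCS, the copper chaperone of SOD1, rose by 0.87 and 0.89, and the sestrin SESN3 by 1.36 and 2.08. GPX8, a peroxidase of the endoplasmic reticulum, fell by 2.11 and 1.43, and the glutaredoxin GLRX3 by 0.61 and 0.83 (the first under 7 of 8 alternatives, with adjusted p up to 0.058). By siRNA, SESN1 was higher in siMLK4 cells by 0.8 in vehicle and by 0.55 with doxorubicin. SESN3 was 1.53 higher with doxorubicin, and its vehicle difference of 0.81 did not pass (adjusted p = 0.0672).

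Genes of the glutathione and NADPH supply list, which also holds CHAC1, a gene of glutathione breakdown, fell more often than they rose. All 17 genes were measured, and 2 rose and 11 fell in each siRNA group, with medians of −0.53 and −0.49 against 0 and 0.02 for all genes, of which 27.7% fell in each. With library totals 3 rose and 8 fell in each. The falls in siNT cells include CHAC1 and GGCT. For GGCT (−0.53, adjusted p = 0.0498) the call passed in 5 of 12 fits without 1 library and in 3 of 8 alternatives. TKT, a pentose phosphate enzyme, fell by 1.31 in siNT and 1.91 in siMLK4 cells on the log2 scale, and ME1, the malic enzyme, by 0.8 and 1.16. SLC7A11, the cystine carrier, fell by 1.21 and 0.76. GCLM, a subunit of the glutathione-making ligase, fell by 0.43 and 0.62 (the first under 7 of 8 alternatives, with adjusted p up to 0.16). SLC3A2, the partner chain of SLC7A11, fell by 0.78 and 0.44 and TALDO1, a pentose phosphate enzyme like TKT, by 0.55 and 0.79. The siMLK4 fall of SLC3A2 (adjusted p = 0.0475) passed in only 5 of 12 fits without 1 library. It passed in 5 of 8 alternatives, with adjusted p up to 0.21. CHAC1, which degrades glutathione, had 1872, 494 and 1529 normalized reads in siNT vehicle libraries and 112, 93.7 and 173 with the drug (−2.78, SE 0.49, adjusted p = 0.00024), the largest doxorubicin difference of the list in siNT cells. In siMLK4 cells its means were 425 ± 396 and 227 ± 63.2 (SD, n = 3), and the libraries overlapped (−0.49, SE 0.49, adjusted p = 0.4). The difference between these responses did not pass (2.28, SE 0.69, adjusted p = 0.12). GCLM was also lower in siMLK4 cells (−0.65 in vehicle and −0.84 with doxorubicin). The 2 that rose were mitochondrial, IDH2 (1.21 and 1.74) and NADK2 (0.76 and 1.01). IDH1, the cytosolic counterpart of IDH2, fell with the drug by 0.98 and 0.86 and was higher in siMLK4 cells by 0.8 in vehicle and 0.92 with doxorubicin.

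The 7 genes of selenoprotein synthesis, on which the glutathione peroxidases GPX1, GPX2 and GPX4 depend, were all measured. In siNT cells 2 rose and 2 fell with doxorubicin, in siMLK4 cells 1 rose and 3 fell, and SEPHS1 alone was past the study's thresholds (−0.75 in siNT cells), beside 29.6% of all genes rising in siNT and 30.2% in siMLK4 cells and 27.7% falling in each. With library totals 2 rose and 1 fell in siNT cells. Of 17 measured sources of superoxide and peroxide and enzymes of anthracycline reduction, 7 rose and 6 fell in each siRNA group (of all genes, 29.6% and 30.2% rose and 27.7% fell), with medians of 0.03 and −0.13, and 9 rose and 5 fell in siNT cells with library totals. By siRNA, 2 were higher and 7 lower in vehicle and 3 higher and 7 lower with doxorubicin in siMLK4 cells, beside 12.7% and 13.0% and then 12.7% and 12.1% of all genes. XDH, xanthine dehydrogenase, fell with the drug, and its means were 3525 ± 420 and 986 ± 128 normalized reads in siNT against 2048 ± 275 and 550 ± 34.3 in siMLK4 libraries (SD, n = 3 each). ERO1B, an oxidase of the endoplasmic reticulum, rose by 1.91 and 1.44, and DUOX1, a dual oxidase, fell by 1.16 and 1.47. The other dual oxidase, DUOX2, rose by 1.02 and 1.33, from vehicle means of 6.98 and 9.96 normalized reads to 44.8 and 74.7, and NOXO1, an organizer subunit of an NADPH oxidase, by 1.03 and 1.21, from 10.4 and 23.5 to 56.1 and 103. Counts this low are compressed on the deposited scale. Of the carbonyl reductases, CBR1 fell by 0.67 and 0.77 and CBR3 rose by 1.04 and 0.6. NOXA1, an activator subunit of an NADPH oxidase, was higher in siMLK4 cells with doxorubicin (0.88, SE 0.15, adjusted p = 0.00065), with means of 62.1 against 18.4 normalized reads. MAOA was lower in siMLK4 cells by 0.96 in vehicle and 0.56 with doxorubicin on the log2 scale. NQO1, a quinone reductase and NRF2 target, had means of 8155 and 3445 normalized reads with doxorubicin in siNT and siMLK4 cells (−1.24, SE 0.15, adjusted p = 5e-05). In vehicle the means were 7278 and 4998 (−0.54, SE 0.15, adjusted p = 0.0141), which passed under 7 of 8 alternatives, with adjusted p up to 0.056. The interaction of NQO1 did not pass (−0.7, SE 0.21, adjusted p = 0.11).

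Among 22 measured regulators 6 rose with doxorubicin in each siRNA group, while 3 fell in siNT and 2 in siMLK4 cells. Their medians were −0.12 and 0.05, and of all genes 29.6% and 30.2% rose and 27.7% fell in each. In siNT cells the counts depended on the scaling, with 7 rising and 0 falling by library totals and 4 rising and 3 falling by TMM. NFE2L1 rose by 1.09 and 1.11 and FOXO4 by 1.08 and 1.03. HIF1A, the hypoxia factor subunit, fell by 0.76 in siMLK4 cells and by 0.62 in siNT cells, the latter not without siNT vehicle 2 or 3 or siNT doxorubicin 1 (adjusted p up to 0.12). NFE2L2, which encodes NRF2, differed with the drug by −0.41 (siNT, adjusted p = 0.0428) and −0.05 (siMLK4, adjusted p = 0.81), and the first passed in 6 of 12 fits without 1 library. It was lost without siNT vehicle 1 or 3, siNT doxorubicin 1 or 2, siMLK4 vehicle 2 or siMLK4 doxorubicin 1 (adjusted p up to 0.17). MAFF, a small MAF partner of NRF2, was lower in siMLK4 cells by 1.53 in vehicle and 0.96 with doxorubicin. Of the 5 NF-κB subunits, RELB was lower in siMLK4 vehicle cells (−0.66, adjusted p = 0.0042) and the other 4 did not pass, RELA at 0.02, NFKB1 at −0.24, NFKB2 at −0.31 and REL at 0.06. None of the 5 passed by siRNA with doxorubicin. NFKB2 rose with the drug in both siRNA groups (0.49 and 0.71) and RELB in siMLK4 cells (1.02, adjusted p = 4.2e-05). In siNT cells RELB passed at 0.38 (adjusted p = 0.037), but not without siNT vehicle 2 or 3 or any 1 of the siNT doxorubicin libraries, with adjusted p up to 0.11. RELA fell by 0.37 in siNT cells (adjusted p = 0.012), which passed under 7 of 8 alternatives with adjusted p up to 0.34.

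SOD2 was set beside 19 measured NF-κB targets, a list chosen with the study's subject in view. In siMLK4 vehicle cells 10 of them were lower (7 with library totals) and 2 higher, with a median of −0.44, where 13.0% of all genes were lower and 12.7% higher, with a median of 0.01. With doxorubicin 8 were lower and 1 higher, with a median of −0.26, against 12.1% and 12.7% of all genes and a median of 0.02. With the drug itself 9 rose and 1 fell in siNT cells (29.6% and 27.7% of all genes), and 10 rose and 3 fell in siMLK4 cells (30.2% and 27.7%), with medians of 0.34 and 0.24. CXCL8 and CXCL1 shared the pattern of SOD2, higher with the drug and lower in siMLK4 cells in both treatments. CXCL8, a chemokine, had group means of 760, 1464, 111 and 378 normalized reads in the order used for SOX9. TNFAIP3 was lower in siMLK4 cells (−1.02 and −0.89), but its doxorubicin differences were −0.1 and 0.02 (adjusted p = 0.61 and 0.93). PLAU, the urokinase, was lower by 0.99 and 1.63, and IL1B, a cytokine, was lower too, with 92.2 to 106 normalized reads in siMLK4 against 167 to 210 in siNT vehicle libraries, and 66.1 to 93.4 against 223 to 266 with doxorubicin. In siMLK4 cells CXCL3, SDC4 and TRAF1 rose with the drug by 0.77, 0.82 and 0.93. Their treated means were 3.79-, 1.79- and 2.91-fold the vehicle means, as the low counts of CXCL3 and TRAF1 are compressed on the deposited scale. SDC4 also rose in siNT cells, by 0.64, and CXCL3 by 0.42 (adjusted p = 0.0277, in 8 of 12 fits without 1 library). TRAF1 did not pass there (0.38, adjusted p = 0.0541). IL6 differed in another way: its highest vehicle library had 4.7 normalized reads, and with doxorubicin it reached 468, 483 and 551 in siNT and 92.4, 65 and 172 in siMLK4 libraries. ICAM1, an adhesion molecule, was 0.5 higher in siMLK4 vehicle cells (adjusted p = 0.0036). With doxorubicin its siMLK4 difference was −0.18 (adjusted p = 0.23). ICAM1 rose with the drug by 1.63 in siNT and by 0.95 in siMLK4 cells (adjusted p = 7e-08 and 5.8e-06).

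**Figure D4:**
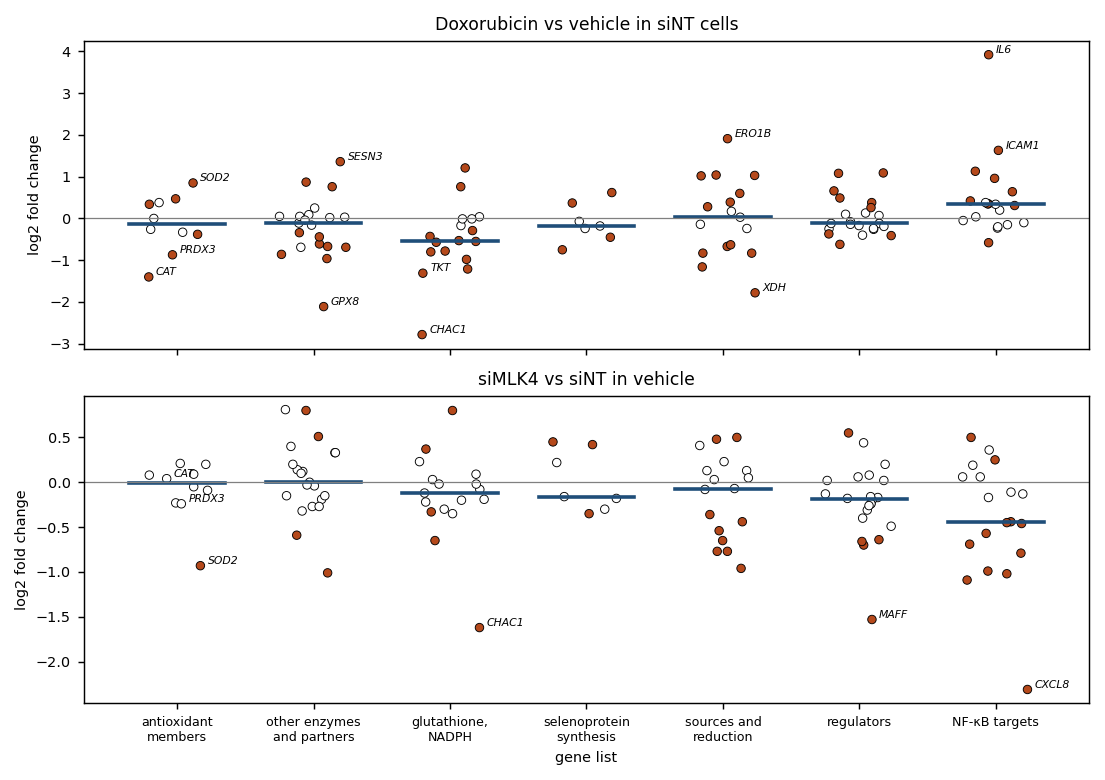
Log2 fold change (vertical axis) of each measured gene of the 10 enzymes and of 6 lists, for doxorubicin in siNT cells (upper panel) and for siMLK4 in vehicle (lower panel); filled points passed an adjusted p under 0.05 and bars are medians. Medians are lowest for glutathione and NADPH supply with the drug (−0.53) and for NF-κB targets with siMLK4 (−0.44).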

How the data were processed

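mRNA-seq libraries of HCC1806 cells were grouped by the sample labels, and none was left out. According to the paper and the submitters' processing notes, the authors used Trimmomatic 0.39, HISAT2, HTSeq 0.6.0 and DESeq2 1.26.0; the notes list hg19 and the paper GRCh38, so coordinates here are those of GENCODE 44 on GRCh38. The values deposited by the authors are variance-stabilized and close to log2, which compresses changes of genes with few reads. Inverting it gave whole reads (tolerance 0.05) for 100% of values and size factors of 0.852 to 1.199. Of the identifiers, 16957 of 17013 matched GENCODE.

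The design held a count model in case the table gave counts; as the deposited unit is log2, limma 3.58.1 (R 4.3.3, lmFit and eBayes with a variance trend) was fitted to the 12 libraries with 4 group means, with Benjamini-Hochberg adjustment over all 17013 genes. "Rose" and "fell" mean an adjusted p under 0.05. On simulated data it recovered 95% of genes changed by 1 log2 unit and called 8 of 16813 unchanged genes. Whether these rates hold for the 12 libraries, with their deviations linked to transcript length, was not tested. Equally numbered libraries deviated together between vehicle and doxorubicin in siNT cells (r 0.46, 0.11 and 0.2) and between siRNA groups with doxorubicin (0.19, 0.52 and 0.56), by the values alone, and not in the other comparisons (lowest −0.72). Alternatives were TMM scaling, library totals, a minimum of 10 reads in every library, limma-voom, log2(normalized reads + 1), no variance trend, only the groups compared, a replicate block and leaving out each library. The enzymes, lists and tests were chosen with earlier results of these data known. Named are the 10 enzymes, MAP3K21, list genes past the study's thresholds or most abundant in their list, the 5 genes most like SOD2 and the 3 most opposite; other genes are named as defining markers or, as NFE2L2, RELA, REL, NFKB1 and NFKB2, after their values were seen. Some genes of the lists are counted in them but not reported by name here. Sequences are the study's siRNAs, GENCODE transcripts and RefSeq promoters.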

Additional observations from a re-analysis of the deposited data

Results flagged for a closer look

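ICAM1, IL6 and the basal keratin KRT5 had doxorubicin responses that differed between siMLK4 and siNT cells by the interaction test of limma. For ICAM1 the difference was −0.68 (SE 0.15, adjusted p = 0.042), and it passed in 2 of 12 fits without 1 library and in 7 of 7 alternatives. For IL6 it was −1.72 (SE 0.29, adjusted p = 0.011), and it passed in 12 of 12, but in 4 of 6 alternatives, with adjusted p up to 0.61; its vehicle libraries hold 0 to 4.7 normalized reads, so the fitted value depends on the scale of low counts. For KRT5 it was −0.96 (SE 0.22, adjusted p = 0.047), which passed in 2 of 12 fits without 1 library, with adjusted p up to 0.13, and in 4 of 7 alternatives, with adjusted p up to 0.052.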

How the results depend on the processing

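No result changed direction past the threshold in any alternative run, and SOD2 kept its call in each of the 4 comparisons under all of them. At the study's thresholds 3859 genes responded to doxorubicin in siNT and 3949 in siMLK4 cells, 961 differed by siRNA in vehicle and 950 with doxorubicin, and 47 in the interaction; of the enzymes 3 passed in siNT cells with the drug and 1 by siRNA with doxorubicin. With the length slope as a covariate, chosen after seeing the data, 6887 and 6856 genes differed by siRNA in vehicle and with doxorubicin and 1398 in the interaction, and 5, 8 and 2 enzymes. By siRNA with doxorubicin, 5 enzymes and 5082 genes passed with only the groups compared in the fit, and 6 enzymes and 5478 genes without the 2 vehicle libraries of lowest slope (2 and 4219 as reported). Leaving out 1 library gave 2575 to 4764 genes by siRNA with doxorubicin (lowest without siMLK4 doxorubicin 1), 1 to 2 enzymes there, and 58 to 351 genes in the interaction (without siMLK4 doxorubicin 1 and 3). With the replicate block, used where the numbers paired the libraries, SOD2 was 0.85 with doxorubicin in siNT cells (adjusted p = 3.6e-05), −0.9 by siRNA with doxorubicin (adjusted p = 0.00015), and PRDX1 lost its call (0.34, adjusted p = 0.056); no other enzyme call changed. Library totals shifted the median of all genes by 0.241, 0.186, 0.142 and 0.088 in the 4 comparisons, and the share of calls that were higher from 51.6 to 68.5%, 52.2 to 65.6%, 49.4 to 69.8% and 51.1 to 64.7%; in the interaction it went from 48 to 38.1%. Canonical transcript lengths changed the rank of 7 of the 10 enzymes. A newer SOD2 row was not found, so that alternative was not run. The causes of these changes were not tested, and 3 libraries per group limit the precision.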
